A study of Mus musculus with 6 samples.

Results

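Laminins, the integrins that bind matrix, and the proteins that tie both to the rest of the basement membrane and to the cytoskeleton were followed in mouse mammary tumors treated with sulindac sulfide (SS). The genes were taken by symbol: numbered Lama, Lamb and Lamc chains, numbered Itga and Itgb chains other than the leukocyte chains Itgb2 and Itgb7, and Itgav, Nid1, Nid2, Hspg2, Agrn, Dag1, Ilk, Tln1, Tln2, Vcl, Ptk2 and Pxn. This gave 41 of the 13730 genes in the table: 11 laminin chains, 19 integrin chains and 11 others. Bulk RNA from 6 tumors was sequenced, 3 from Control mice and 3 from mice that received SS. The tumors grew from C0321, a triple-negative breast cancer (TNBC) cell line made from an Lfng-/- mouse of the FVB strain, so every tumor of both groups carries that deletion in its cancer cells. The cells had been placed in the mammary fat pad of female FVB mice aged 6 to 10 weeks, together with Matrigel, itself a laminin-rich basement membrane extract. SS was given by mouth each day at 60 mg/kg for 14 days once a mass could be felt. The sample labels name the drug as sulindac sulfate, while the methods of the study name sulindac sulfide. The series text gives saline as the control, while the study says vehicle. All mice had received cells of 1 line, and the 3 tumors per group came from separate mice as far as the labels tell.

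Laminins are the cross-shaped trimers of basement membranes, each built from 1 alpha, 1 beta and 1 gamma chain. Cells hold them through integrins, which are pairs of an alpha and a beta chain, and through dystroglycan. In the mammary gland the basement membrane surrounds the epithelium, and the integrin pair of alpha6 and beta4 anchors basal cells to laminin-332, a trimer that holds Lama3 and Lamb3. On the cell's inner side, talin switches integrins on, vinculin and paxillin build the adhesion, and focal adhesion kinase (Ptk2) and Ilk pass the signal on. Integrin alpha tails begin with a short conserved motif next to the membrane, and behind it Itga3, Itga6 and Itga7 can end in an A or a B tail by splicing. Because several of the results below concern which transcript of these laminin receptors was counted, their tails are shown from that motif to the last coding base, with the 15 bases of the motif in capitals. The sequences are from GENCODE M21 on GRCm38, and each name is followed by chromosome, position and strand.
Itga3, 35 residues, chr11:95046483-95046587, minus strand: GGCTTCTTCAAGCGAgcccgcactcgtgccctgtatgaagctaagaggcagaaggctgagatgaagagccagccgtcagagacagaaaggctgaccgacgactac
Itga6 A, 34 residues, chr2:71853537-71853638, plus strand: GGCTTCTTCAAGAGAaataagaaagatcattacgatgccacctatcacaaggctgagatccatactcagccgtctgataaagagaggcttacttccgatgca
Itga6 B, 52 residues, chr2:71855857-71856012, plus strand: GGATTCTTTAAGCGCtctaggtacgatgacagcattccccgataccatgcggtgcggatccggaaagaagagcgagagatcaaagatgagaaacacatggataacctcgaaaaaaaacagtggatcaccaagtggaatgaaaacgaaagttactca
Itga7, 75 residues, chr10:128957624-128957848, plus strand: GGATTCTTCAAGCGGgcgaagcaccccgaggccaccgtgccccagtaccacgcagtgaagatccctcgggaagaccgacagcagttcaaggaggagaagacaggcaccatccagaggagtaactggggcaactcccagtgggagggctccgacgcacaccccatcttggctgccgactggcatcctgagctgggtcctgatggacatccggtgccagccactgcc
The motif was found in 12 of the 13 alpha genes, Itga11 being the exception. Both transcripts of Itga3 in the table end in the tail shown, as do both transcripts of Itga7.

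Levels are given in CPM, counts scaled to a common library size with TMM factors, and between genes only per kilobase of transcript. The libraries held 8468948 to 24441553 counts, and a floor of 3 counts corresponds to 0.123 to 0.358 CPM. As for the label, the 3 receptors that a TNBC lacks were low, with Pgr at 0 to 3.82 CPM, Esr1 at 4.48 to 6.40 CPM and Erbb2 at 17.1 to 22.4 CPM. The epithelial keratin Krt8 was at 417 to 544 CPM, whereas the epithelial adhesion genes Epcam and Cdh1 were at 0.0410 to 2.98 CPM and 3.04 to 8.58 CPM, Epcam lying under the floor in Control 2, Control 3 and at it in SS 1. The mesenchymal filament gene Vim was at 5875 to 8620 CPM. In bulk RNA, fewer cells of a type and less RNA per cell cannot be told apart, and this holds for every value that follows.

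Per kilobase, the level was highest for the common integrin beta chain Itgb1, with a mean of 236 CPM per kb over the 6 tumors. Ilk followed at 176, the vitronectin receptor chain Itgb5 at 160, talin 1 at 136 and vinculin at 118 CPM per kb. Over the tumors, Itgb5 overlapped Ilk, Tln1 and Vcl, and Tln1 overlapped Vcl, so the order after Itgb1 is not settled. Among laminin chains the order was Lamb1 at 75.2, Lamc1 at 35.3, Lama4 at 10.3, Lamb2 at 10.0 and Lama5 at 5.06 CPM per kb. Lama4 and Lamb2 overlapped as well. Lama4 encodes the alpha chain of vessels and mesenchyme, and Lama5 lay under both Lama4 and Lamb2 in each tumor. Lama4 exceeded Lama5 by a ratio per kb of 1.28 to 3.04, and Lamb1 above Lamb2 by 6.23 to 8.50. Transcript of Lamc1 per kb exceeded the summed Lama chains by 1.91 to 2.67 times in each tumor. Of laminin-332, Lamb3 was at 2.03 and Lama3 at 0.0796 CPM per kb. Among the alpha integrins, the fibronectin receptor Itga5 led at 52.4 CPM per kb, before the laminin receptor Itga3 at 33.1 and Itgav at 24.3, which overlapped each other. Itga6 was at 9.01 and Itga7 at 4.76, and the 4 collagen receptor chains Itga11, Itga2, Itga1 and Itga10 were at 1.89, 0.984, 0.897 and 0.671 CPM per kb, with overlap between neighbours. Itgb5 exceeded Itgb3 by a ratio per kb of 31.3 to 43.5 and Tln1 exceeded Tln2 by 13.0 to 24.8.

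**Figure D1:**
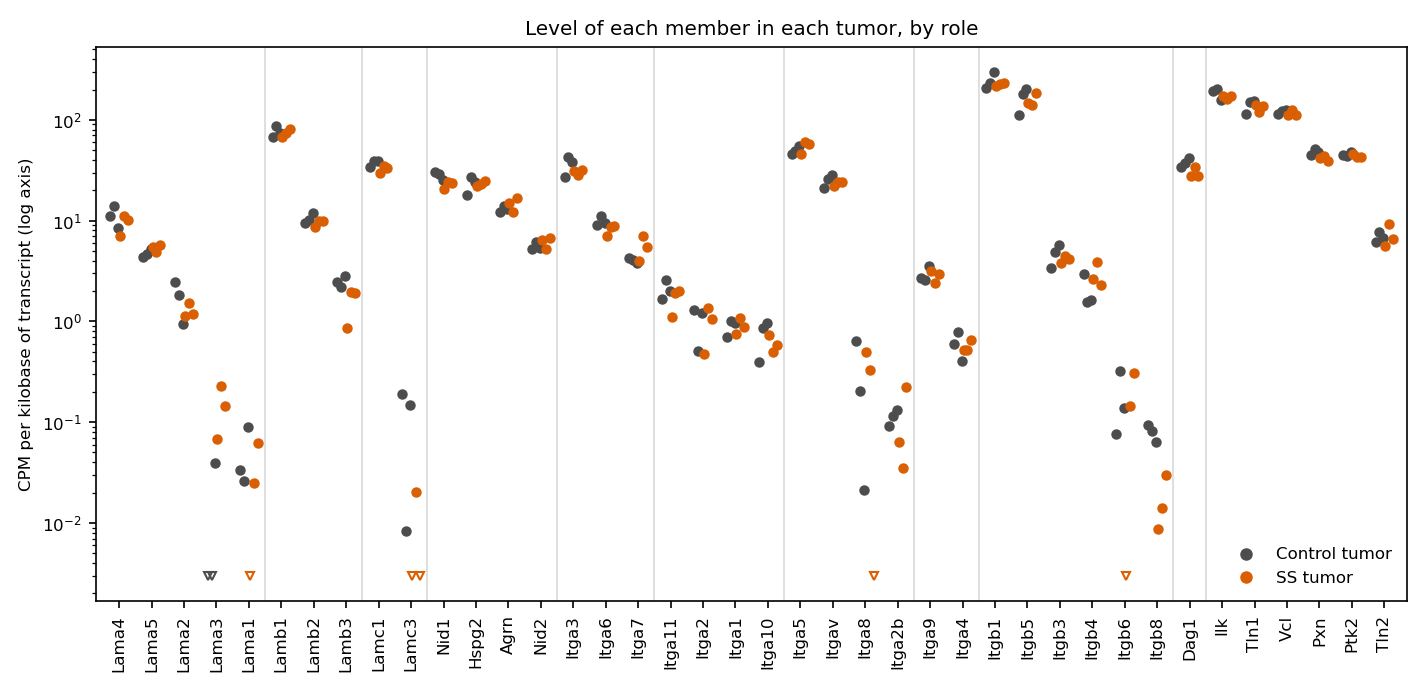
Level of 40 of the 41 genes in each of the 6 tumors, in CPM per kilobase of transcript on a log axis, grouped by role with grey lines between roles (laminin alpha, beta and gamma chains, basement membrane linkers, laminin, collagen, RGD and other alpha integrins, beta integrins, dystroglycan, adhesion linkers and kinases). Grey points are Control and orange points SS tumors, open triangles mark a count of 0, and the span from Itgb1 at the top to Lama1 near 0.04 CPM per kb is far wider than the distance between groups.

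The question of the comparison was how SS treatment moved the genes of laminin adhesion. Of the 41 genes, 35 passed the filter on low counts and were tested with edgeR across all 10902 genes that passed. With adjustment over all genes, 0 of the 35 had an adjusted p under 0.05, where the share over all genes was 0.0%, and their adjusted p by edgeR ran from 0.771 to 0.997. DESeq2's Wald test gave 0 of the 41, with no adjusted p for 19 of them, while it called 47 of 13703 genes over the whole table. At an unadjusted p under 0.05 in edgeR there were 3 of 35, or 8.57%, against 6.36% of all genes tested. All 3 were lower in SS tumors, namely Nid1, Dag1 and Pxn, where 3.16% of all genes were lower at that threshold. The groups did not overlap for 5 of 35 genes, or 14.3%, against 12.9% of all genes. All 5 were lower in SS tumors, namely Nid1, Dag1, Pxn, Itga6 and Lamb3, where 6.4% of all genes were lower without overlap. The log2 fold change (log2FC, SS minus Control, written below ± its standard error) lay under 0 for 25 of 35 genes, or 71.4%, against 50.2% of all genes. Its median was -0.07 against -0.0013 over all genes, and it ran from -0.66 for Lamb3 to 0.54 for Itgb4. For 31 of the 35 genes it lay within 0.35 of 0 on the log2 scale.

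**Figure D2:**
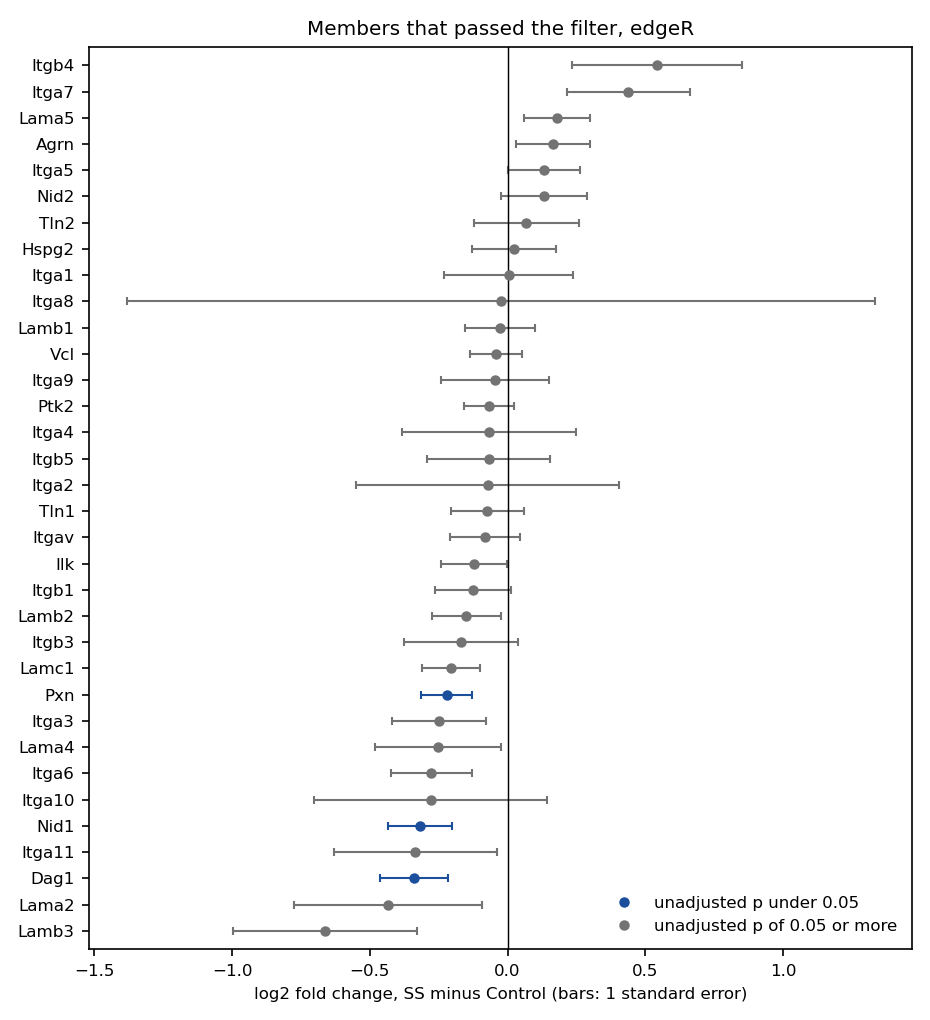
Log2 fold change, SS minus Control, from edgeR for 34 of the 35 genes that passed the filter, in order of size, with bars of 1 standard error. Nid1, Dag1 and Pxn, in blue, had an unadjusted p under 0.05 and lie between -0.34 and -0.22, while the lower end is held by Lamb3 at -0.66 and the upper end by Itgb4 at 0.54.

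Nidogen 1, the rod that links the laminin network to type IV collagen, was lower in all 3 SS tumors than in any Control tumor. Nid1 (chromosome 13, 13437602 to 13512275, GRCm38) was at 186, 178 and 153 CPM in Control tumors 1, 2 and 3 and at 125, 147 and 143 CPM in SS tumors 1, 2 and 3. The nearest tumors were Control 3 and SS 2. Its mean was 173 ± 17.1 CPM in Control and 138 ± 11.6 CPM in SS tumors (mean ± SD, n = 3). The log2FC was -0.32 ± 0.12, and edgeR gave an unadjusted p of 0.026 and an adjusted p of 0.771. Without 1 tumor, edgeR's unadjusted p for Nid1 rose to 0.082 (without Control 1), 0.073 (Control 2) or 0.091 (SS 1), with log2FC values of -0.26, -0.29 and -0.25. Nidogen 2, its close relative, was at 27.3 ± 2.54 CPM in Control and 29.9 ± 3.95 CPM in SS tumors (mean ± SD, n = 3), a log2FC of 0.13 ± 0.16. Per kb, Nid1 exceeded Nid2 by 5.78, 4.73 and 4.74 times in Control tumors and by 3.19, 4.64 and 3.47 times in SS tumors. These ratios did not overlap between groups. Such a lack of overlap alone sets the exact two-sided permutation test to p = 0.1, the smallest that 3 against 3 tumors allow. Among the ratios between genes that were computed, no other was apart between groups. Measured against Lamc1 the ratio of Nid1 did overlap, at 0.637 to 0.887 in Control and 0.687 to 0.698 in SS tumors per kb.

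Perlecan and agrin, the heparan sulfate proteoglycans of this linker group, did not pass the unadjusted threshold. Hspg2 was at 256, 386 and 340 CPM in Control and at 316, 328 and 354 CPM in SS tumors, with a log2FC of 0.02 ± 0.15. The SS tumors lay inside the range of the Control tumors, and Control 1 was lowest. Agrn had a log2FC of 0.16 ± 0.13, which was 0.058 without SS 3 and 0.27 without SS 2. Of the 4 linkers, 1 was lower at an unadjusted p under 0.05 in edgeR, where 3.16% of all genes were lower, and 3 had a log2FC above 0.

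Dystroglycan, the laminin receptor that couples to dystrophin and utrophin, showed the same order of groups as Nid1. Dag1 (chromosome 9, 108204861 to 108263958) was at 156, 168 and 189 CPM in Control and at 126, 154 and 126 CPM in SS tumors. SS 2 came within a few CPM of Control 1, and the other SS tumors lay apart. The mean was 171 ± 16.6 CPM in Control and 135 ± 16.1 CPM in SS tumors (mean ± SD, n = 3). The log2FC was -0.34 ± 0.12, and edgeR gave an unadjusted p of 0.026 and an adjusted p of 0.771. Without Control 2, Control 3, SS 1 or SS 3, edgeR's unadjusted p was 0.051, 0.086, 0.082 and 0.086, with log2FC values of -0.35, -0.26, -0.30 and -0.29. The count of Dag1 is a sum over 7 transcripts, whose shares were the same within 0.01 percentage points in 3 tumors, so these shares carry no information on isoforms there. The promoter windows of Nid1 and Dag1, the genes with the smallest p among the 35, are shown from the RefSeq table as the 250 bases before the transcription start on GRCm38.p6. Capitals mark a GC box (GGGCGG) or a CCAAT box (CCAAT) on either strand.
Nid1, chr13:13437352-13437601, plus strand: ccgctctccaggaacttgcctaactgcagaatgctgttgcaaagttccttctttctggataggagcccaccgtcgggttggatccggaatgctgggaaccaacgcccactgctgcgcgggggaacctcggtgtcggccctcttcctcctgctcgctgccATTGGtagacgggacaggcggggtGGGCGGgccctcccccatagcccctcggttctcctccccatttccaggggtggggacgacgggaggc
Dag1, chr9:108263959-108264208, minus strand: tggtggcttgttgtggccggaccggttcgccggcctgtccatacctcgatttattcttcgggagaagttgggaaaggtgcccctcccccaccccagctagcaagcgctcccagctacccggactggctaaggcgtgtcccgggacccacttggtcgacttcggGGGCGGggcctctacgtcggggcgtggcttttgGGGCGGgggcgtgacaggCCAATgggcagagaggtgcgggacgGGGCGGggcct
Nid1 held 1 GC box and 1 CCAAT box and Dag1 held 3 GC boxes and 1 CCAAT box in these windows. A second Dag1 start, which lies inside the gene, had a window with 3 GC boxes and 2 CCAAT boxes, not shown. Of the 41 genes, 27 had such windows, 33 in all, and 48.5% of the windows held a GC box against 32.7% of all 32851 windows in the table. A CCAAT box was in 21.2% against 33.8%, TATAAA in 0.0% against 12.4% and the AP-1 letters TGANTCA in 0.0% against 6.75%. The letters GTGGGAA, which RBPJ, the DNA-binding partner of cleaved Notch, can bind, were in 3.03% of these windows, that of Hspg2, against 5.42% of all. These are matches of letters on both strands, and no test was made of them.

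Paxillin, the adaptor that binds vinculin and focal adhesion kinase, was lower in SS tumors by a smaller amount with little spread. Pxn (chromosome 5, 115506676 to 115555987) was at 156, 174 and 164 CPM in Control and at 145, 144 and 135 CPM in SS tumors. Every SS tumor lay under every Control tumor. The mean was 165 ± 9.22 CPM in Control and 141 ± 5.21 CPM in SS tumors (mean ± SD, n = 3). The log2FC was -0.22 ± 0.093, and edgeR gave an unadjusted p of 0.046 and an adjusted p of 0.771. Leaving out Control 1 kept it at 0.045 by edgeR, while without Control 2, Control 3, SS 1, SS 2 or SS 3 it was 0.14, 0.077, 0.073, 0.077 and 0.13, with log2FC values between -0.24 and -0.18. The other inner components differed less. Talin 1 was at 969.6, 1256 and 1284 CPM in Control and 1168, 1010.4 and 1156 CPM in SS tumors, so the groups overlapped. Its log2FC was -0.07 ± 0.13. Vcl, Ptk2, Ilk and Tln2 had log2FC values of -0.04, -0.07, -0.12 and 0.07. Ptk2 and Vcl were the steadiest of the 41 genes, with a coefficient of variation over the 6 tumors of 4.90% and 5.42%.

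**Figure D3:**
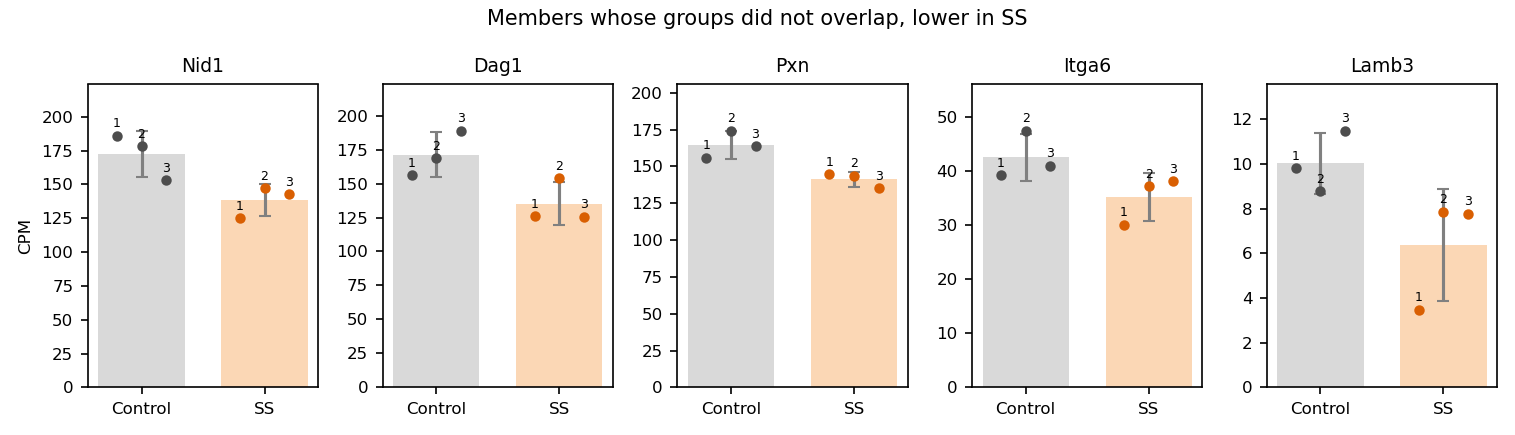
CPM in each tumor for the 5 tested genes whose Control and SS tumors did not overlap, with bars for the group mean, error bars of 1 SD (n = 3) and the replicate number at each point. In each panel the lowest Control tumor lies above the highest SS tumor, and SS 1 is the lowest tumor for Nid1, Itga6 and Lamb3.

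Among the laminins, 0 of 8 tested chains had an unadjusted p under 0.05 in edgeR, 6 had a log2FC under 0, and the median was -0.18. Over all genes 6.36% passed and 50.2% lay under 0, so that 0 of 8 is near the share of all genes. Lamb3, the beta3 chain of laminin-332 (chromosome 1, 193301994 to 193343878), had the lowest value of all 35 genes. It was at 9.80, 8.80 and 11.5 CPM in Control and at 3.48, 7.87 and 7.77 CPM in SS tumors. The groups did not overlap, and SS 1 lay far under the other tumors. Its log2FC was -0.66 ± 0.33 and an unadjusted p of 0.085 by edgeR, and it was -0.36 without SS 1. Lamc1, the gamma1 chain shared by most laminins, was at 262, 301 and 301 CPM in Control and at 228, 266 and 256 CPM in SS tumors. Here SS 2 lay just above Control 1, and the log2FC was -0.21 ± 0.10 and an unadjusted p of 0.087 by edgeR. Lamb1 was at 388, 503 and 427 CPM in Control and at 389.8, 429 and 473 CPM in SS tumors, which cover the same range. Its log2FC was -0.03 ± 0.13, and that of Lamb2, the beta2 chain of muscle and vessel basement membranes, was -0.15 ± 0.13, or -0.054 without Control 3. Lama4 was at 67.4, 85.1 and 51.1 CPM in Control and at 42.7, 67.0 and 61.6 CPM in SS tumors, with overlap and a log2FC of -0.25 ± 0.23. Without Control 2 or SS 1, Lama4 was at -0.05 and -0.08. Lama5, the broadest epithelial alpha chain, had a log2FC of 0.18 ± 0.12. Lama2, the muscle and nerve alpha chain, had -0.43 ± 0.34. Without Control 3, Lama2 was at -0.73 with an unadjusted p of 0.018 by edgeR, and without Control 1 it was at -0.10 with 0.76. Lamc1 was at -0.27 with 0.047 by edgeR without Control 1 and at -0.15 with 0.25 without SS 1.

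Of 16 tested integrin chains, 0 had an unadjusted p under 0.05 in edgeR, 12 had a log2FC under 0, and the median was -0.07. A count of 0 of 16 is near the 6.36% of all genes that passed, and 50.2% of all genes lay under 0. The laminin receptor chain Itga6 (chromosome 2, 71786939 to 71858427) was at 39.2, 47.4 and 40.9 CPM in Control and at 30.0, 37.2 and 38.1 CPM in SS tumors. Control 1 and SS 3 were about 1 CPM apart, and the groups did not overlap. Its log2FC was -0.28 ± 0.15 with an unadjusted p of 0.096 by edgeR, and -0.18 with 0.26 without SS 1. Itga3, the other epithelial laminin receptor chain, was at 130.2, 209 and 184 CPM in Control and at 152, 137 and 152 CPM in SS tumors. Control 1 lay under all SS tumors. The log2FC was -0.25 ± 0.17, and without Control 1 it was -0.42 with an unadjusted p of 0.0087 by edgeR, against -0.096 with 0.58 without Control 2. Their partner Itgb1 was at 798, 889 and 1134 CPM in Control and at 818, 874 and 893 CPM in SS tumors, with a log2FC of -0.13 ± 0.14. Control 3 was the highest tumor there.

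None of the receptors of fibronectin, vitronectin and collagen passed the unadjusted threshold in edgeR. Itga5 was at 201, 213 and 243 CPM in Control and at 203, 267 and 251 CPM in SS tumors, with a log2FC of 0.13 ± 0.13. Itgav, the alpha chain that pairs with Itgb3 and Itgb5, was at -0.08, Itgb5 at -0.07 and Itgb3 at -0.17 in log2FC. For Itgb3 this was -0.35 without Control 1 and -0.0022 without Control 3. The collagen receptor Itga1 was at 7.75, 11.1 and 10.5 CPM in Control and at 8.27, 11.8 and 9.55 CPM in SS tumors, with a log2FC of 0.0038 ± 0.24. Its sign turned in DESeq2. The log2FC values of Itga2, Itga10 and Itga11 were -0.07, -0.28 and -0.33, with standard errors of 0.48, 0.42 and 0.30. Itga9, the tenascin receptor chain, was at 18.7, 18.0 and 25.0 CPM in Control and at 22.4, 16.7 and 20.8 CPM in SS tumors, a log2FC of -0.04. The leukocyte and mesenchymal chain Itga4 had -0.07 ± 0.32. Itga8, a chain of smooth muscle and kidney mesenchyme, was at 0.123 to 3.72 CPM in Control and 0 to 2.90 CPM in SS tumors and had a standard error of 1.36.

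At the other end of the order stood Itgb4 and Itga7, which had the largest log2FC values above 0 but did not pass the unadjusted threshold. Itgb4, the hemidesmosome chain that pairs with Itga6, was at 16.4, 8.95 and 9.03 CPM in Control and at 15.02, 21.8 and 13.2 CPM in SS tumors. Control 1 lay among the SS tumors. The log2FC was 0.54 ± 0.31 and an unadjusted p of 0.12 by edgeR, and without Control 1 it was 0.89 with 0.013, against 0.31 with 0.37 without SS 2. The summed level of the basal keratins and other basal markers (6 of 7 in the table) was 174, 19.5 and 8.04 CPM in Control and 76.4, 90.5 and 9.30 CPM in SS tumors. The 3 tumors highest in Itgb4, namely SS 2, Control 1 and SS 1, were also the 3 highest in this sum. They were the 3 highest in the adipocyte sum as well, at 49.0, 83.9 and 31.9 CPM, so the match is not particular to basal markers. Control 2 and SS 3 stood in opposite order in Itgb4 and in the basal sum. Krt5, Trp63, Oxtr and Krt6a were each at 0 in at least 1 tumor. Itga7, the laminin receptor chain of skeletal muscle (chromosome 10, 128933813 to 128958284), was at 17.2, 16.3 and 15.2 CPM in Control and at 15.8, 28.1 and 22.1 CPM in SS tumors. SS 2 and SS 3 stood above the other tumors and SS 1 did not. The log2FC was 0.44 ± 0.22 and an unadjusted p of 0.086 by edgeR, and without SS 1 it was 0.63 with 0.013, against 0.23 with 0.31 without SS 2. The 6 skeletal muscle markers summed to 5383, 10814 and 1095 CPM in Control and to 326, 22574 and 12133 CPM in SS tumors. SS 2 and SS 3 were the highest tumors in this sum as in Itga7. In Myh4 and Tnnt3, Control 2 (4665 and 155 CPM) lay above SS 3 (4113 and 149 CPM), while Myh1, Acta1, Ckm and Mylpf followed the sum. The part of these markers in the values of Itgb4 and Itga7 was not tested.

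**Figure D4:**
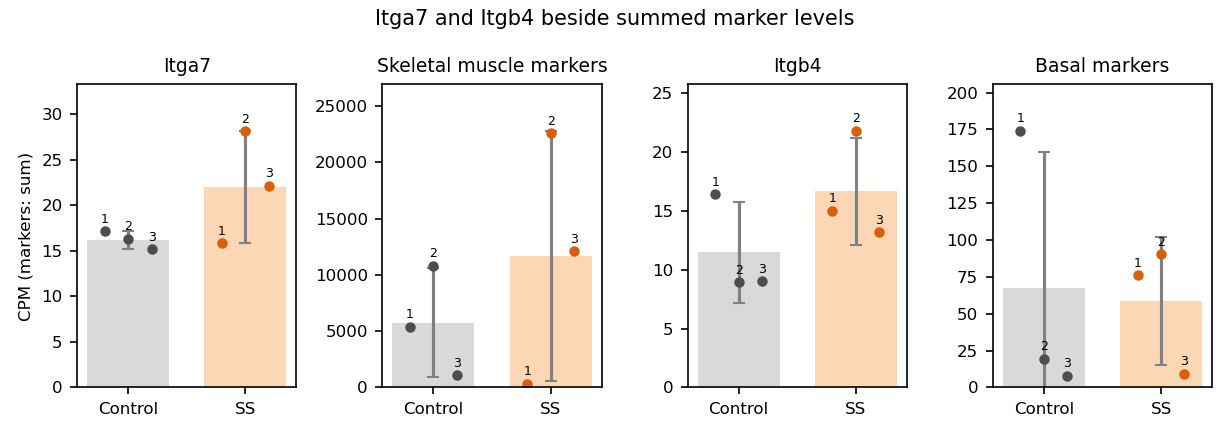
CPM in each tumor for Itga7, the summed skeletal muscle markers, Itgb4 and the summed basal markers, with bars for the group mean, error bars of 1 SD (n = 3, drawn from 0 upward where they would cross it) and replicate numbers at the points. SS 2 and SS 3 are highest in both panels on the left, and SS 2, Control 1 and SS 1 are highest in both panels on the right.

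For the receptors whose tails are shown above, the deposited table also gave counts by transcript, described here as shares with no test. Itga6 was counted almost wholly as the A form, at 93.4% or more of its counts in every tumor, and the B form reached at most 6.59%, in SS 2. Itga3 has a second transcript that begins 7516 bases further into the gene and keeps the same tail. It held 5.11%, 1.63% and 5.07% of the counts of Itga3 in Control and 12.1%, 6.89% and 11.4% in SS tumors. Each SS tumor thus lay above each Control tumor, with means of 3.93% ± 2.00 and 10.1% ± 2.83 (SD, n = 3). In CPM this transcript was at 6.65, 3.40 and 9.31 in Control and at 18.4, 9.41 and 17.4 in SS tumors, so that SS 2 barely passed Control 3. The windows before both starts are shown for this reason, with the same motifs in capitals as above.
Itga3 outer start, chr11:95076715-95076964, minus strand: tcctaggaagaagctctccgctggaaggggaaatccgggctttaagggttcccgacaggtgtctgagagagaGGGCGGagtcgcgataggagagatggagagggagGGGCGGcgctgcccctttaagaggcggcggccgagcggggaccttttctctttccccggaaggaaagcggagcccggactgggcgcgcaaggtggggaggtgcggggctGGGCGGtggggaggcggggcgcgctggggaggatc
Itga3 inner start, chr11:95069199-95069448, minus strand: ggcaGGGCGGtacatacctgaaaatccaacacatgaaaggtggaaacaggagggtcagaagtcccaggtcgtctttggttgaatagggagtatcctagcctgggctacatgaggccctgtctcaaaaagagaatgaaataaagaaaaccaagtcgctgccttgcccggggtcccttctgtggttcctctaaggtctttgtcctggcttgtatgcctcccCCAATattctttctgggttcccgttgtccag
The outer window held 3 GC boxes and no CCAAT box, and the inner window held 1 GC box and 1 CCAAT box. Shares were looked at for 13 genes with several transcripts, and for 1 of them, Itga3, the groups did not overlap. Over the whole table, at least 1 transcript share was without overlap in 16.8% of the 4101 genes with several transcripts, a larger share than 1 of 13. The minor transcript of Itga7 took 18.5% to 48.3% of its counts and that of Itgb4 took 2.24% to 28.7%, with overlap between groups. The table splits reads between transcripts by estimate, and for 3 genes, Lamb3, Itga8 and Itgb6, the share was the same within 0.01 percentage points in 4 or more tumors.

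**Figure D5:**
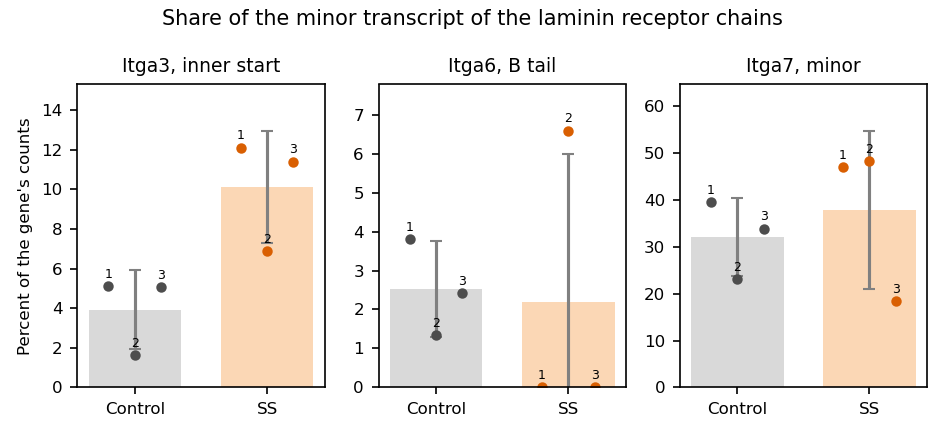
Percent of the gene's counts assigned to the minor transcript of Itga3 (the inner start), Itga6 (the B tail) and Itga7, in each tumor, with bars for the group mean, error bars of 1 SD (n = 3, drawn from 0 upward) and replicate numbers at the points. In the Itga3 panel the groups are apart, from 1.63% to 5.11% in Control and from 6.89% to 12.1% in SS tumors, as they are for 16.8% of all genes with several transcripts, and in the other panels they overlap.

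The 6 genes that did not pass the filter on low counts were Itga2b, Itgb6, Itgb8, Lama1, Lama3 and Lamc3, and their intervals cover counting error only. Itgb8, a chain that binds latent TGF-beta, had 10, 14 and 13 counts in Control and 1, 1 and 3 counts in SS tumors. The ratio of SS to Control was 0.228 after scaling, with an exact 95% interval of 0.0699 to 0.582. With all 41 genes tested, by DESeq2 or by edgeR with no filter, Itgb8 was not among those with an unadjusted p under 0.05. Lama3, the alpha chain of laminin-332, had 0, 0 and 10 counts in Control and 10, 20 and 18 counts in SS tumors, a ratio of 8.10 with an interval of 4.05 to 18.0. In CPM the groups did not overlap for Itgb8 or for Lama3, 2 of the 6, against 9.16% of the 2828 genes in the table that did not pass the filter, and no test was made of this count. Lama3 and Lamb3, chains of 1 trimer, thus stood in opposite order between the groups. Lamc3 had 14, 1 and 21 counts in Control and 0, 1 and 0 counts in SS tumors, with overlap and a ratio of 0.0469 (interval 0.0012 to 0.278). Itga2b, the platelet chain, had 23 against 13 counts over the 3 tumors of each group, the epithelial chain Itgb6 had 45 against 20, and Lama1, the chain of early embryonic membranes, had 30 against 9.

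The partners of these genes were read from lists of other basement membrane genes, integrin ligands, adhesion partners, dystroglycan partners and tetraspanins. Among 42 tested adhesion partners, 1 was higher and 0 lower at an unadjusted p under 0.05 in edgeR, with a median log2FC of 0.05. Over all genes, 6.36% passed that threshold in either direction, which is the share to set beside the counts of each list here. It was Tns1, which ties integrin tails to actin, at 188, 155 and 174 CPM in Control and at 234, 233 and 221 CPM in SS tumors, a log2FC of 0.41 ± 0.10. Among 23 tested dystroglycan partners and glycosylation genes, 2 were lower and 1 higher. Sgce, a sarcoglycan, was at 1.30 ± 0.402 CPM in Control and 0.333 ± 0.105 CPM in SS tumors (mean ± SD, n = 3), and Pomgnt2, which extends the sugar of dystroglycan, had a log2FC of -0.78. Dtnb, a dystrobrevin, had 0.34. Of 18 other basement membrane genes, Frem1 was lower with a log2FC of -0.88, and Col7a1, the anchoring fibril collagen, was higher with 0.62. Of 15 ligands, Thbs2 was lower with -0.73, Vwf higher with 1.20 and Tgfbi higher with 0.26. Of 10 tetraspanin and plectin partners, the integrin-binding tetraspanin Cd9 was lower with -0.35. The medians of these 4 lists were -0.10, 0.0023, -0.12 and 0.011 in log2FC, and none of the genes named here had an adjusted p under 0.05 in edgeR.

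Other cell types were read beside these values from summed markers, and single markers against the 6.36% of all genes that passed the unadjusted threshold in either direction. Luminal epithelial markers summed to 914 to 1146 CPM in Control and 763 to 1109 CPM in SS tumors, and of 8 tested, Krt18 and Krt7 were lower with log2FC values of -0.50 and -0.51 at an unadjusted p under 0.05 in edgeR. The median over the 8 was 0.31. Epcam, Esrp1 and Krt19 had log2FC values of 2.2 ± 1.25, 1.21 ± 1.76 and 0.85 ± 1.45. Cdh1, Elf5 and Krt8 had 0.41 ± 0.44, 0.21 ± 1.83 and -0.096 ± 0.12, and none of these passed. Fibroblast markers ranged from 12076 to 18204 against 8805 to 17336 CPM and were lowest in SS 1, the tumor that was also lowest in Nid1, Lamb3 and Lamc1. The skeletal muscle sum (326 CPM) and the pericyte and smooth muscle sum (931 CPM) were lowest in SS 1 too, while Dag1 and Pxn were lowest in SS 3. The fibroblast sum is mostly the collagen genes Col1a1 and Col1a2. The median log2FC of the 6 tested fibroblast markers was -0.46, with none past the unadjusted threshold. Endothelial markers ranged from 88.1 to 138 against 116 to 222 CPM. Of 8 tested, Esam and Ptprb were higher at the same threshold, and the median log2FC was 0.33. Kdr and Sox17 lay under 0, at -0.17 and -0.37. Pericyte and smooth muscle markers ranged from 1032 to 1759 against 931 to 2067, leukocyte markers from 490.5 to 566 against 482 to 608, adipocyte markers from 5.46 to 83.9 against 11.6 to 49.0, and platelet markers from 5.06 to 5.58 against 2.69 to 6.76 CPM. Markers at 0 in at least 1 tumor were Elf5 and Esrp1 (luminal), Pi16 (fibroblast), Pecam1 (endothelial), Cd79a (leukocyte), Gp9 (platelet) and 6 of the 8 adipocyte markers, Adipoq and Plin1 among them. The groups overlapped in each of these sums, and their part in the levels of laminins and integrins was not tested.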

How the data were processed

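RNA of 6 tumors, 3 Control and 3 SS by their labels, was analysed from 1 table. The authors deposited estimated counts for 20648 RefSeq transcripts, without normalization and after removal of entries with very low counts. The submitters' processing notes list CASAVA 1.8.1, Bowtie2 2.2.5, STAR 2.5.3a and mm10 with no role, and the counting tool is not given in the sources used here. The polyA libraries kept strand and were read as pairs of 75 nucleotides.

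Counts were summed per gene symbol and rounded, after 21 symbols stored as dates were restored. edgeR 4.0.16 in R 4.3.3 (filterByExpr, TMM, quasi-likelihood test, no covariate) was fitted over 10902 genes with Benjamini-Hochberg adjustment, after tests on simulated data. The standard error of a log2 fold change was its size over the square root of its F value. The deposited stop lay 1 base past the RefSeq gene end for most of these genes, so gene ends are printed as that stop less 1. Lengths came from GENCODE M21, by accession for 57 of 59 transcripts and from the gene's longest coding transcript for 2. Totals were 8468948 to 24441553 counts, and intervals cover counting error only. Alternatives were RLE scaling, DESeq2 1.42.0, quantile normalization with limma 3.58.1, no filter, a replicate block and leaving out each tumor.

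The genes and lists were chosen with earlier results of these data known. Values in all tumors are printed for genes with an unadjusted p under 0.05, genes whose groups do not overlap, and the gene with the highest mean CPM in each role. Other genes given that way (Itga7, Itgb4, Lamc3 and the Itga3 transcript) were chosen after their values were seen. From each list of partners, genes with an unadjusted p under 0.05 are named, at most 4. Single values of 1 of the 41 genes and of 1 marker list are not reported here.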

Additional observations from a re-analysis of the deposited data

How the results depend on the processing

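At an unadjusted p under 0.05, edgeR with TMM gave 3 genes of 35 tested (Nid1, Dag1 and Pxn), edgeR with RLE scaling the same 3, DESeq2 5 of 41 and edgeR with no filter 5 of 41, the same 3 with Lama3 (higher) and Lamc3 (lower) each time. Quantile normalization with limma gave 0, with log2 fold changes of -0.33 for Dag1, -0.30 for Nid1 and -0.21 for Pxn, and the cause was not tested. Over all genes the share at that threshold was 6.4% with RLE scaling, 6.1% in DESeq2, 5.75% with no filter and 5.95% with limma. Leaving out each tumor gave 1 to 5 genes, where the share over all genes ran from 4.58% to 7.81%, the latter without Control 1. The count was 1 without Control 2 (Lamc3) and without SS 3 (Nid1), and 5 without Control 1, where Itga3, Itgb4 and Lamc1 joined Dag1 and Pxn, and at an adjusted p it was 0 of these genes in each setting run. The number of log2 fold changes under 0 ran from 21 to 28 when a tumor was left out. Under the other settings, 2 of 170 log2 fold changes of single genes turned, both of Itga1, to -0.0059 in DESeq2 and -0.0048 with no filter. With 1 tumor left out, 22 of 34 genes kept their sign, and 12 did not, with ranges on the log2 scale as follows: Hspg2 -0.13 to 0.16, Itga1 -0.14 to 0.12, Itga2 -0.40 to 0.26, Itga4 -0.29 to 0.18, Itga8 -0.83 to 1.31, Itga9 -0.14 to 0.12, Itgav -0.20 to 0.015, Itgb1 -0.23 to 0.033, Itgb5 -0.29 to 0.12, Lamb1 -0.11 to 0.079, Tln1 -0.19 to 7.9e-05, Tln2 -0.16 to 0.22. Others kept their sign but moved by over 1.5 times, furthest as follows: Ilk to -0.041 (without Control 2) and -0.23 (Control 3), Itga5 to 0.049 (SS 2) and 0.24 (SS 1), Itga10 to -0.57 (Control 1) and -0.048 (Control 3), Itga11 to -0.10 (SS 1), Nid2 to 0.055 (SS 3) and 0.23 (SS 2), and Ptk2 to -0.024 and Vcl to -0.010 (Control 3). The replicate number as a block gave 2 genes of 35, Dag1 and Nid1, where 5.9% of all genes passed. It left Pxn at -0.22 with an unadjusted p of 0.071 by edgeR. No label ties tumors with the same number to each other, and their deviations correlated at 0.021 to 0.12. These weak correlations showed no clear pairing, and they cannot exclude it. On raw totals, the summed CPM of the 41 genes moved by less than the spread between tumors. With 3 tumors per group and 8468948 counts in the shallowest library, genes of a few counts are limited by depth.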
